A study of Mus musculus with 2 samples.

Results

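The 7 genes described here encode enzymes that make or interconvert asparagine, proline, aspartate, glutamate and alanine: Asns, Aldh18a1, Pycr1, Got1, Got2, Gpt2 and Glud1. They were chosen by name for their place in metabolism, were found by symbol among the 22587 gene symbols of both single-cell matrices, and each had 1 identifier there. The rule itself used no measured value, but the members and gene lists were chosen with earlier results of these data known. They were read in YFP+ cells of the adult mouse hippocampus from control (CT) mice and from mice with a conditional knockout of Opa1 (Opa1 cKO).

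Asparagine synthetase (Asns) adds an amide group, taken from glutamine, to aspartate. Proline is made from glutamate in mitochondria: pyrroline-5-carboxylate synthase (Aldh18a1) reduces glutamate, and pyrroline-5-carboxylate reductase (Pycr1) turns the product into proline and uses up NADH or NADPH. The aspartate aminotransferases of the cytosol (Got1) and of mitochondria (Got2) exchange amino groups between glutamate and aspartate and form part of the malate-aspartate shuttle, which carries reducing equivalents across the inner membrane. The mitochondrial alanine aminotransferase (Gpt2) does the same between glutamate and alanine, and glutamate dehydrogenase (Glud1), also mitochondrial, links glutamate to the tricarboxylic acid cycle and is abundant in astroglial cells. Aspartate synthesis is known to depend on respiration, and Asns, Aldh18a1 and Pycr1 are known targets of the transcription factor ATF4 in the integrated stress response (ISR), the program that cells turn on when translation is restrained under stress.

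Both groups carried Nestin-CreERT2, which places a tamoxifen-inducible Cre under the Nestin promoter of neural stem cells (NSCs), and ROSA26YFP, which marks recombined cells and their progeny with YFP. The Opa1 cKO mice also carried Opa1-Flox. OPA1 is the GTPase that fuses mitochondrial inner membranes and shapes cristae. The CT sample is described as an Opa1-Flox negative WT control, although the strain entry of both samples reads Opa1-Flox;Nestin-CreERT2;ROSA26YFP. Tamoxifen was given at 8 weeks of age, and hippocampi were taken at 12 weeks, that is 4 weeks post-TAM. Live cells (YFP positive, propidium iodide negative) of 3 mice of each genotype went together into 1 library, made with the 3′ chemistry of 10x Genomics, in which each captured mRNA molecule is tagged with a unique molecular identifier (UMI). With 1 library for each genotype no test between genotypes was possible, and differences between mice or library preparations lie outside every interval given below.

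After filters on detected genes, mitochondrial share and YFP, 1790 CT cells with 5051491 UMIs and 3764 Opa1 cKO cells with 12483473 UMIs were kept. Of the 36 cell barcodes that occurred in both libraries, 9 were among the kept cells. Clusters were named from marker genes and all names end in -like. The main class, the NSC pool-like cells, held 1378 CT and 2583 Opa1 cKO cells with all 12 of its markers detected in both libraries, and these markers are also expressed by astrocytes. It joined cluster 0 (1374 CT and 792 Opa1 cKO cells, with Slc7a10 and Cxcl14 among the leading genes) and cluster 1 (4 CT cells and 1791 of Opa1 cKO, in which Nupr1, Gdf15 and Slc7a11 led, which are known stress-induced genes). Opa1 itself had a level of 18.5 CPM in the CT cells of this class and of 8.13 CPM in the knockout cells. CPM is the counts-per-million scale, UMIs of a gene over all UMIs of the class and library. Mitochondrially encoded mRNAs made up 5.9% of the UMIs of the class in CT and 2.17% in Opa1 cKO, and the median cell had 2494 and 2958 UMIs. Summed markers of oligodendrocyte progenitors were at 111 CPM in CT against 322 CPM in Opa1 cKO (4 of 6 markers with a UMI in each library, Pdgfra and Gpr17 at 0), those of microglia at 15.6 and 31.9 CPM (6 of 6), and those of mature neurons at 584 and 371 CPM (5 of 5 and 4 of 5, Slc17a7 at 0 in Opa1 cKO). The part of these in the results below was not tested.

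The promoters are shown first because the genes differed in a motif there. A known binding sequence of ATF4 dimers is TGATGNAA (TTNCATCA on the other strand), with N any base. It was searched on both strands in windows from 250 bases before to 50 bases after the RefSeq start of each gene (GRCm38.p6), and 3.97% of all 32851 such windows held it. Counted by gene, as in the lists below, 4.51% of 27025 genes held it in a window. All 7 enzymes matched a window, and 3 of them held the motif 1 time each. In Asns it read TGATGAAA and began 23 bases before the start. In Pycr1 it read TGATGCAA and began 103 bases before the start, and in Got1 it lay on the other strand as TTGCATCA, 102 bases before the start. Aldh18a1, Got2, Gpt2 and Glud1 had no match in their windows, which says only that these letters were not there. Of the other metabolic genes listed below none held the motif (0 of 7 genes with a window for proline, 0 of 11 for asparagine and aspartate, 0 of 13 for glutamate and alanine, 0 of 7 for the shuttle), and of the ISR genes 9 of 22 did. The 250 bases before the start are printed for the 3 genes with a match and for Aldh18a1, each 5′ to 3′ on the gene's strand, with the motif in capitals.
Asns (chr6:7693210-7693459, minus strand): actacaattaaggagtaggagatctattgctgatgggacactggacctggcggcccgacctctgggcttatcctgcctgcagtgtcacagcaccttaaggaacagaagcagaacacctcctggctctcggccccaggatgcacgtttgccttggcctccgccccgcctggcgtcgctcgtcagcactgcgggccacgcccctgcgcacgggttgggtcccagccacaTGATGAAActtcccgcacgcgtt
Pycr1 (chr11:120643749-120643998, minus strand): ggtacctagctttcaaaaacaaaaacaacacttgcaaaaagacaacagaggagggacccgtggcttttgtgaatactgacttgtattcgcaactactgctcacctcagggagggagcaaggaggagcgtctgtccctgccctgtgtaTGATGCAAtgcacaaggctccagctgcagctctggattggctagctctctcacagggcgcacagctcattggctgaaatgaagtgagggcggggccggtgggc
Got1 (chr19:43524606-43524855, minus strand): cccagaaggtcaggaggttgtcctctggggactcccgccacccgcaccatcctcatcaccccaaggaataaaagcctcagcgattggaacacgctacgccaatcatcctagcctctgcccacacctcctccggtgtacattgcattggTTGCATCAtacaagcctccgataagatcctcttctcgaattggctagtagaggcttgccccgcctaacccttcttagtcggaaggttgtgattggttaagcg
Aldh18a1 (chr19:40588464-40588713, minus strand): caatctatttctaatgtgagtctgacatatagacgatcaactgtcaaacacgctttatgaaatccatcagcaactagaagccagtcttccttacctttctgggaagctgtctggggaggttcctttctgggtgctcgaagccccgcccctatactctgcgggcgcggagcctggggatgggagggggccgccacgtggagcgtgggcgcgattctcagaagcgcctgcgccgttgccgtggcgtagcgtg

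Asns, Aldh18a1 and Pycr1 were far higher in Opa1 cKO than in CT NSC pool-like cells, whereas Got1, Got2, Gpt2 and Glud1 were at similar levels in both. Asns (ENSMUSG00000029752; chr6:7675169-7693254, minus strand; mm10 with GENCODE M21, as for all genes here) had 1 UMI in the CT cells and 622 UMIs in the Opa1 cKO cells of the class. This is a level of 0.265 CPM (95% exact Poisson interval 0.0067 to 1.47) and 73.3 CPM (67.6 to 79.3), so the gene was close to undetected in CT. The log2 ratio of Opa1 cKO over CT was 8.11, with an exact 95% interval from the split of the UMIs of 5.63 to 13.42, or 277-fold (49.5 to 10952). Of 11284 genes that reached 20 UMIs in the class, 1 had a higher ratio than Asns, namely the stress cytokine Gdf15 (8.56, 6.07 to 13.86), which is named here after its value was seen. In this order genes with no UMI in CT stand at values computed with 3 counts. Such a gene may stand below Asns only because of this setting, as Trib3 may at 6.73.

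Both enzymes of proline synthesis from glutamate were also far higher in Opa1 cKO. Aldh18a1 (ENSMUSG00000025007; chr19:40550257-40588463, minus strand, overlapped on the same strand by Gm15801), the entry enzyme, had 15 UMIs in CT and 436 UMIs in Opa1 cKO. Its level was 3.97 CPM (2.22 to 6.55) in CT and 51.4 CPM (46.7 to 56.4) in Opa1 cKO. Its log2 ratio was 3.69 (2.96 to 4.54). Whether the overlap with Gm15801 affected the counts of Aldh18a1 was not tested. Pycr1 (ENSMUSG00000025140; chr11:120635712-120643769, minus strand), the final enzyme, had 2 UMIs in CT and 242 UMIs in Opa1 cKO, a level of 0.529 CPM (0.0641 to 1.91) and 28.5 CPM (25 to 32.3). The log2 ratio of Pycr1 was 5.75 (3.88 to 8.80). For both genes the intervals of the CT and Opa1 cKO levels lay far apart, and in the same order 19 of the 11284 genes stood above Aldh18a1.

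The aminotransferases and glutamate dehydrogenase differed little between the libraries. Got1 (ENSMUSG00000025190; chr19:43499752-43524605, minus strand), whose promoter also held the motif, was at 31.5 CPM (26.1 to 37.7) in CT and 39.5 CPM (35.4 to 43.9) in Opa1 cKO, with a log2 ratio of 0.33 (0.02 to 0.64). Got2 (ENSMUSG00000031672; chr8:95864134-95888547, minus strand) was at 20.9 CPM (16.6 to 26.1) and 26.4 CPM (23 to 30.1), a log2 ratio of 0.34 (−0.04 to 0.72). An antisense gene, Gm45760, overlaps Got2 on the other strand. The processed pseudogene Got2-ps1 could share reads of Got2, so the level of Got2 is uncertain to that extent. Gpt2 (ENSMUSG00000031700; chr8:85492576-85527560, plus strand) was at 50.6 CPM (43.6 to 58.3) and 49.8 CPM (45.2 to 54.8), a log2 ratio of −0.02 (−0.27 to 0.23). Glud1 (ENSMUSG00000021794; chr14:34310727-34345265, plus strand), with 2235 and 4757 UMIs the most deeply counted of the 7, was at 592 CPM (567 to 617) and 560 CPM (545 to 577), a log2 ratio of −0.08 (−0.15 to −0.005). These 4 values can be read against the median log2 ratio of the 5487 genes with at least 300 UMIs in the class, which was 0.14, so that Got1 and Got2 lay somewhat above the median gene and Gpt2 and Glud1 below it. The intervals of Got1, Got2 and Gpt2 included 0.14.

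In all, 3 of the 7 enzymes had a log2 ratio of at least 1 in NSC pool-like cells, where 4.0% of the genes that reached 20 UMIs did, and 0 of 7 had a ratio of at most −1, where 3.75% of genes did. The median over the 7 was 0.34, and the median over all 11284 genes was 0.03. The plot of log2 ratios sets the enzymes beside the rest of their pathways.

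**Figure D1:**
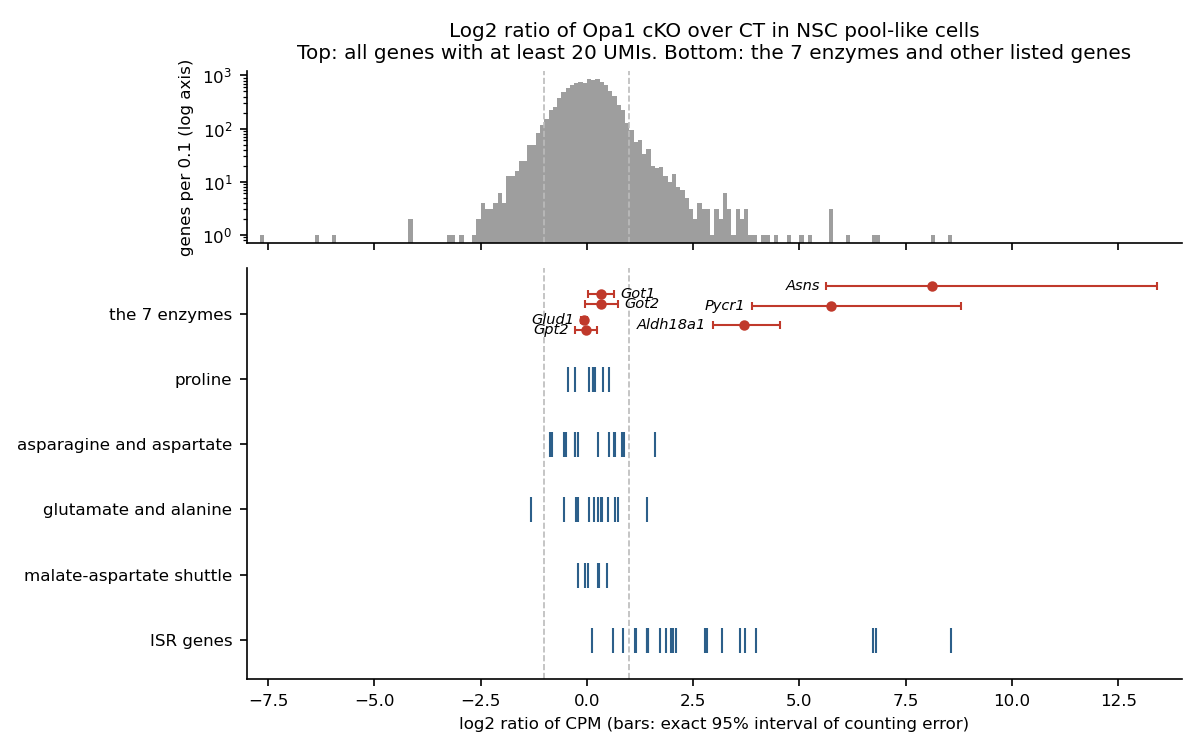
Opa1 cKO set against CT in NSC pool-like cells, as log2 ratios of CPM. The upper panel counts all genes with at least 20 UMIs in steps of 0.1 (log axis), the lower panel gives the 7 enzymes with exact 95% intervals of counting error and, as ticks, the other listed genes with at least 20 UMIs (a gene at 0 UMIs in 1 library is set at 3 counts), and dashed lines mark −1 and 1. Asns (8.11), Pycr1 (5.75) and Aldh18a1 (3.69) lie among the highest ratios, as 20 of 23 ISR genes lie at 1 or above, while the other 4 enzymes and 38 of 41 other metabolic genes lie between −1 and 1. Of all genes with at least 20 UMIs, 4.0% lie at 1 or above and 3.75% at −1 or below.

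The other genes of the same pathways were mostly level between the libraries, as most genes were. Of 41 such genes with at least 20 UMIs (of 48 in the matrices), 2 had a log2 ratio of at least 1, 1 had a ratio of at most −1 and the median was 0.16. Over all genes with at least 20 UMIs in the class, 4.0% and 3.75% passed these limits. The counts of the 41 were thus near the share of any gene. Among 8 proline genes none passed 1 in either direction. Pycrl, the cytosolic paralogue of Pycr1, named here for its kinship although it is outside the rule for named genes, was at 55.6 CPM in CT against 57.8 CPM in Opa1 cKO (0.06, −0.18 to 0.30), and its interval included 0 where that of Pycr1 did not. Proline dehydrogenase (Prodh), which begins proline breakdown, was at 312 and 344 CPM (0.14, 0.04 to 0.24), and ornithine aminotransferase (Oat), which joins ornithine to the same intermediate, at 264 and 377 CPM (0.52, 0.41 to 0.62). The collagen prolyl hydroxylase subunit P4ha1 was at 96.1 and 106 CPM (0.14, −0.04 to 0.32).

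Among 14 genes of asparagine and aspartate, 1 had a ratio of at least 1. This was Nars, the cytosolic asparaginyl-tRNA synthetase, which charges tRNA with the product of Asns, at 72 CPM in CT against 218 CPM in Opa1 cKO (1.60, 1.42 to 1.79). The aspartyl-tRNA synthetase Dars was at 81 and 126 CPM (0.64, 0.45 to 0.82) and Paics, which uses aspartate in purine synthesis, at 99.8 and 158 CPM (0.66, 0.49 to 0.83). Asrgl1, an asparaginase-like enzyme, was at 478 and 573 CPM (0.26, 0.19 to 0.34). Argininosuccinate synthase (Ass1), another consumer of aspartate, was lower in Opa1 cKO, at 141 and 116 CPM (−0.28, −0.44 to −0.13). Consumers of aspartate thus did not share a direction.

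Among 13 genes of glutamate and alanine, 1 had a ratio of at least 1. This was Psat1, the phosphoserine aminotransferase of serine synthesis, at 196 CPM in CT against 523 CPM in Opa1 cKO (1.42, 1.31 to 1.53), and it is also in the ISR list. Glutamine synthetase (Glul) was at 5987 and 6692 CPM (0.16, 0.14 to 0.18), close to the median gene. The cytosolic alanine aminotransferase Gpt was at 54.8 and 37.7 CPM (−0.54, −0.80 to −0.28), Abat, which breaks down GABA, at 87.9 and 74.1 CPM (−0.25, −0.44 to −0.05), and the mitochondrial branched-chain aminotransferase Bcat2 at 31.8 and 39.7 CPM (0.32, 0.02 to 0.63).

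The list for the malate-aspartate shuttle, to which Got1 and Got2 belong, had 6 further genes with at least 20 UMIs and none past 1 in either direction. The malate dehydrogenases of the cytosol (Mdh1) and of mitochondria (Mdh2) stood at log2 ratios of 0.27 (0.20 to 0.35) and 0.48 (0.39 to 0.57). The malate and oxoglutarate carrier Slc25a11 had a ratio of 0.28 (0.12 to 0.45). The aspartate and glutamate carrier Slc25a12, named here outside the rule, had a ratio of −0.04 (−0.39 to 0.32). Slc25a18, a glutamate carrier that was on the list but is not a part of the shuttle itself, had a ratio of −0.20 (−0.28 to −0.12). By contrast 20 of 23 ISR genes were at 1 or above, where 4.0% of all genes were, with a median of 1.98. Atf4 was at 77.6 CPM in CT against 211 CPM in Opa1 cKO (1.44, 1.27 to 1.63) and Ddit3 at 49.5 and 340 CPM (2.78, 2.57 to 3.0). Trib3, counted 0 times in CT against 718 UMIs in Opa1 cKO, was 107-fold higher with CT set at 3 counts (exact lower limit 86.4-fold).

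Outside the NSC pool-like class, the 3 genes were not low in every CT cell. The plot of levels by class shows that in CT the progenitor and neuron-like cells (139 CT and 169 Opa1 cKO cells, all 13 markers detected) had the highest values of Asns, Aldh18a1 and Pycr1. Asns was at 24.4 CPM (12.2 to 43.7) in CT cells of this class, 92.3 times the level of CT NSC pool-like cells (13.4 to 3975). Aldh18a1 was at 55.6 CPM (35.9 to 82), 14 times (7.09 to 28.5), and Pycr1 at 44.4 CPM (27.1 to 68.6), 83.9 times (20.4 to 741). The UMIs of Asns, Aldh18a1 and Pycr1 lay in 7, 18 and 15 of the 139 CT cells, so the level of Asns rests on few cells. Without the 5% of cells with the most UMIs the ratio of Asns between the libraries was larger, as given below. The CT level of Aldh18a1 in this class was close to the 51.4 CPM of Opa1 cKO NSC pool-like cells.

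**Figure D2:**
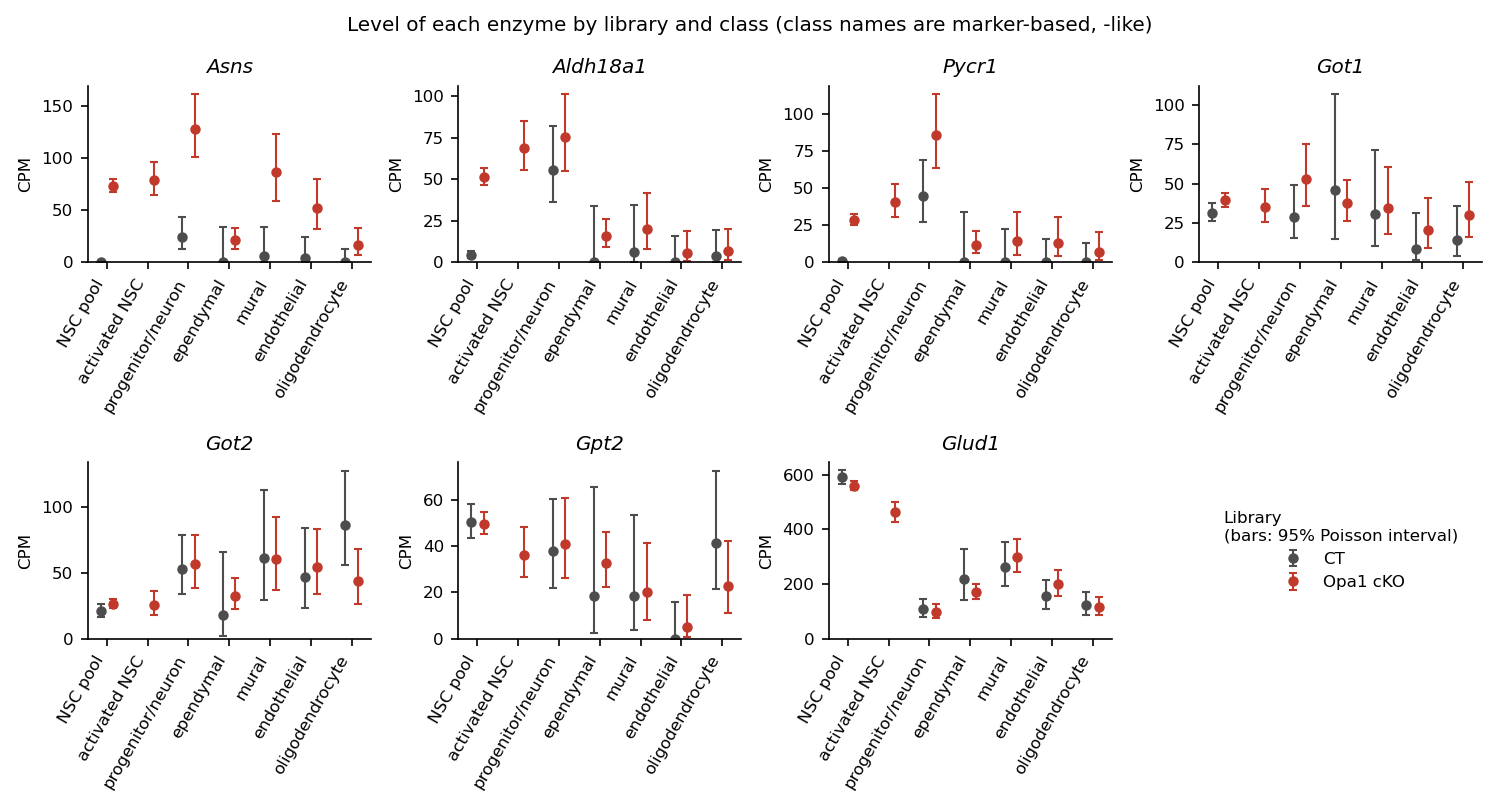
Level of each enzyme in CPM (linear axes from 0, a scale of its own for each gene) by class, in the CT and Opa1 cKO libraries, with exact 95% Poisson intervals of counting error. CT activated NSC-like cells are left out since there were 11. Asns, Aldh18a1 and Pycr1 are near 0 in CT NSC pool-like cells (0.265, 3.97 and 0.529 CPM) and higher in CT progenitor and neuron-like cells (24.4, 55.6 and 44.4 CPM), and Glud1 is highest in NSC pool-like cells of both libraries.

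Between the libraries, progenitor and neuron-like cells differed in Asns, which reached 128 CPM (101 to 161) in Opa1 cKO, with a log2 ratio of 2.39 (1.47 to 3.46). Without the 5% of cells with the most UMIs the ratio was 4.55 (2.64 to 7.63), and those of Aldh18a1 and Pycr1 were then also over 1, at 1.07 (0.13 to 2.09) and 1.17 (0.25 to 2.19). Over all cells of the class Asns was the only 1 of the 7 enzymes with a ratio of at least 1, where 5.21% of genes were that high, and none of the 7 was at −1 or below, where 8.01% of genes were. Pycr1 was at 85.6 CPM (63.5 to 113), a ratio of 0.95 (0.17 to 1.77), and Aldh18a1 at 75.3 CPM (54.7 to 101), a ratio of 0.44 (−0.30 to 1.21). The interval of Aldh18a1 in this class lay wholly below its interval in NSC pool-like cells (2.96 to 4.54), and the same held for Asns and Pycr1 (intervals from 5.63 and 3.88 in NSC pool-like cells). This did not hold in every setting. Without the 5% of cells with the most UMIs, the interval of Asns in NSC pool-like cells was 5.44 to 13.23. It overlapped the 2.64 to 7.63 of progenitor and neuron-like cells. In NSC pool-like cells of cluster 0 alone, the intervals were 1.64 to 9.76 for Asns, −0.36 to 1.84 for Aldh18a1 and −0.74 to 5.27 for Pycr1. Each of these overlapped the interval of the same gene over all progenitor and neuron-like cells. Of the ISR context genes in progenitor and neuron-like cells, Atf4 had a ratio of 0.38 (−0.13 to 0.91) and Ddit3 of 1.13 (0.35 to 1.97). Trib3, with 18 UMIs in Opa1 cKO and none in CT, was 4.62-fold higher with CT set at 3 counts (exact lower limit 3.39-fold). Got1 was at 28.9 and 53.1 CPM (0.88, −0.10 to 1.94; 1.18 with log-normalization before clustering), Got2 at 53.3 and 56.5 CPM (0.08, −0.72 to 0.91) and Gpt2 at 37.8 and 41.1 CPM (0.12, −0.84 to 1.11).

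In mural-like cells (94 CT and 169 Opa1 cKO cells) Asns had 1 UMI in CT and 30 in Opa1 cKO, a level of 6.12 and 86.4 CPM and a log2 ratio of 3.82 (1.23 to 9.17). In endothelial-like cells (55 and 89 cells) it had 1 and 20 UMIs, a level of 4.29 and 51.8 CPM and a ratio of 3.59 (0.95 to 8.97). With endothelial-like cells thinned to 1500 UMIs each, CT had none, and the ratio with CT set at 3 counts was 0.02 (exact lower limit −0.85). Asns was 1 of 3 enzymes with at least 20 UMIs in each of these classes, and 8.03% and 4.37% of genes had ratios of at least 1 there. None of the 3 was at −1 or below in either class, where 6.08% and 7.66% of genes were. Opa1 itself had 1 UMI in CT and 5 in Opa1 cKO mural-like cells (6.12 and 14.4 CPM). In endothelial-like cells it had 2 and 5 UMIs (8.59 and 13 CPM). At these counts a lower level of Opa1 in Opa1 cKO was not seen and could not be judged in either class. Of the ISR context genes, Ddit3 had ratios of 2.78 (1.49 to 4.44) in mural-like and 2.03 (0.95 to 3.31) in endothelial-like cells. Those of Atf4 were 1.34 (0.36 to 2.48) and 0.41 (−0.38 to 1.25). Trib3 had no UMI in CT and 49 and 45 UMIs in Opa1 cKO, with exact lower limits of 6.01-fold and 7.06-fold. In the same Opa1 cKO cells Aldh18a1 and Pycr1 were at 20.2 (8.1 to 41.5) and 14.4 CPM (4.67 to 33.6) in mural-like and at 5.18 (0.628 to 18.7) and 13 CPM (4.21 to 30.2) in endothelial-like cells. CT had at most 1 UMI of either gene in each class, so a difference between the libraries could not be judged. Against Opa1 cKO NSC pool-like cells, mural-like cells had Asns at 1.18 times (0.789 to 1.7), Aldh18a1 at 0.392 times (0.157 to 0.815) and Pycr1 at 0.505 times (0.162 to 1.19) the level. In endothelial-like cells Aldh18a1 was at 0.101 times (0.0122 to 0.367) and Pycr1 at 0.454 times (0.146 to 1.08). Only for Aldh18a1 did the interval lie below 1 in both classes. In ependymal-like cells (39 and 244 cells) Asns, Aldh18a1 and Pycr1 had 0 UMIs in CT, with an exact upper limit of 33.7 CPM. They were at 21, 15.8 and 11.6 CPM in Opa1 cKO, so no difference was detectable at this depth. Asns has no ratio there. Got1, Got2, Gpt2 and Glud1, with ratios from −0.35 to 0.84, did not pass 1 or −1, against 12.9% and 7.14% of genes. Oligodendrocyte-like cells (74 and 101 cells), with mitochondrial shares of 4.96% and 4.78%, had Asns at 0 UMIs in CT (exact upper limit 12.8 CPM) and at 16.1 CPM (6.46 to 33.1) in Opa1 cKO.

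The order of classes differed among the enzymes. In Opa1 cKO, Asns was highest in progenitor and neuron-like cells (128 CPM), followed by mural-like (86.4), activated NSC-like (79), NSC pool-like (73.3) and endothelial-like cells (51.8), then ependymal-like (21) and oligodendrocyte-like cells (16.1). The intervals of all neighbours in this order overlapped, those of endothelial-like (31.7 to 80) and ependymal-like cells (12.9 to 32.5) only just. Aldh18a1 and Pycr1 had the same top class, with activated NSC-like cells next at 68.9 CPM (55.4 to 84.8) and 40.3 CPM (30.1 to 52.8), and for Pycr1 the intervals of these classes did not overlap. In activated NSC-like cells (409 Opa1 cKO cells, against 11 in CT with too few UMIs to compare) Asns was at 1.08 times (0.866 to 1.33), Aldh18a1 at 1.34 times (1.06 to 1.69) and Pycr1 at 1.41 times (1.03 to 1.91) the level of Opa1 cKO NSC pool-like cells.

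Glud1 had its highest levels in NSC pool-like cells and its lowest in progenitor and neuron-like cells in both libraries, the latter with intervals that overlapped those of oligodendrocyte-like cells. In progenitor and neuron-like cells it was at 109 CPM (80.5 to 144) in CT and 97.6 CPM (73.9 to 126) in Opa1 cKO, which is 0.184 times (0.136 to 0.244) and 0.174 times (0.132 to 0.226) the level of NSC pool-like cells. Got2 went the other way and was higher in progenitor and neuron-like than in NSC pool-like cells, 2.55 times (1.54 to 4.07) in CT and 2.14 times (1.44 to 3.09) in Opa1 cKO. In oligodendrocyte-like cells Got2 was at 86.8 CPM (56.2 to 128) in CT and 43.6 CPM (26.3 to 68.1) in Opa1 cKO, with a log2 ratio of −0.99 (−1.93 to −0.07). This interval did not hold in every setting: the ratio was −0.41 (−1.13 to 0.31) with cells without YFP kept, −0.38 (−1.09 to 0.33) with every barcode over 200 genes, −0.97 (−2.01 to 0.06) without the 5% of cells with the most UMIs and −0.93 (−2.93 to 0.94) in thinned cells. None of the 3 enzymes that reached 20 UMIs there passed 1 or −1, against 4.97% and 6.26% of genes. Gpt2 was low in endothelial-like cells, with 0 UMIs in CT (exact upper limit 15.8 CPM) and 5.18 CPM in Opa1 cKO.

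Within the NSC pool-like class the Opa1 cKO cells differed widely in the share of their UMIs that came from the 13 mitochondrially encoded mRNAs, called mt- share here, so the enzymes were read along it. The cells were divided at 1% and 3%. There were 1574 Opa1 cKO cells under 1%, 241 from 1% to under 3% and 768 at 3% and over, against 3, 107 and 1268 CT cells. The groups are ranges and not cell types, and 198 Opa1 cKO cells lay between 0.8% and 1.2%.

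Asns was at 108 CPM (98.9 to 117) in Opa1 cKO cells under 1%, at 58.2 CPM (42 to 78.7) from 1% to under 3% and at 6.34 CPM (3.62 to 10.3) at 3% and over. Aldh18a1 was at 73.1 (65.9 to 80.8), 49.9 (34.9 to 69.1) and 6.73 CPM (3.92 to 10.8) in the same groups. Pycr1 was at 42.3 (37 to 48.3), 20.8 (11.6 to 34.3) and 1.98 CPM (0.643 to 4.62). All 3 were thus higher the lower the mt- share, and cells under 1% exceeded those at 3% and over by log2 ratios of 4.09 (3.37 to 4.90) for Asns, 3.44 (2.74 to 4.23) for Aldh18a1 and 4.42 (3.17 to 6.06) for Pycr1. These 3 of the 7 enzymes passed a ratio of 1 in this comparison of cells of 1 library, as did 6.31% of genes, and none was at −1 or below, where 2.09% were. The median gene with at least 300 UMIs had a ratio of 0.27. Trib3 and Atf4 had ratios of 3.75 (3.15 to 4.42) and 2.11 (1.88 to 2.36). Within CT, the 107 cells from 1% to under 3% were set against those at 3% and over. Aldh18a1 had 4 and 11 UMIs there, a ratio of 2.37 (0.26 to 4.12), and Asns and Pycr1 had 0 UMIs in the 107 cells. Got1 had a ratio of 1.14 (0.28 to 1.91), while the intervals of Got2, Gpt2 and Glud1 included 0. The median gene had a ratio of 0.08 in this comparison.

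**Figure D3:**
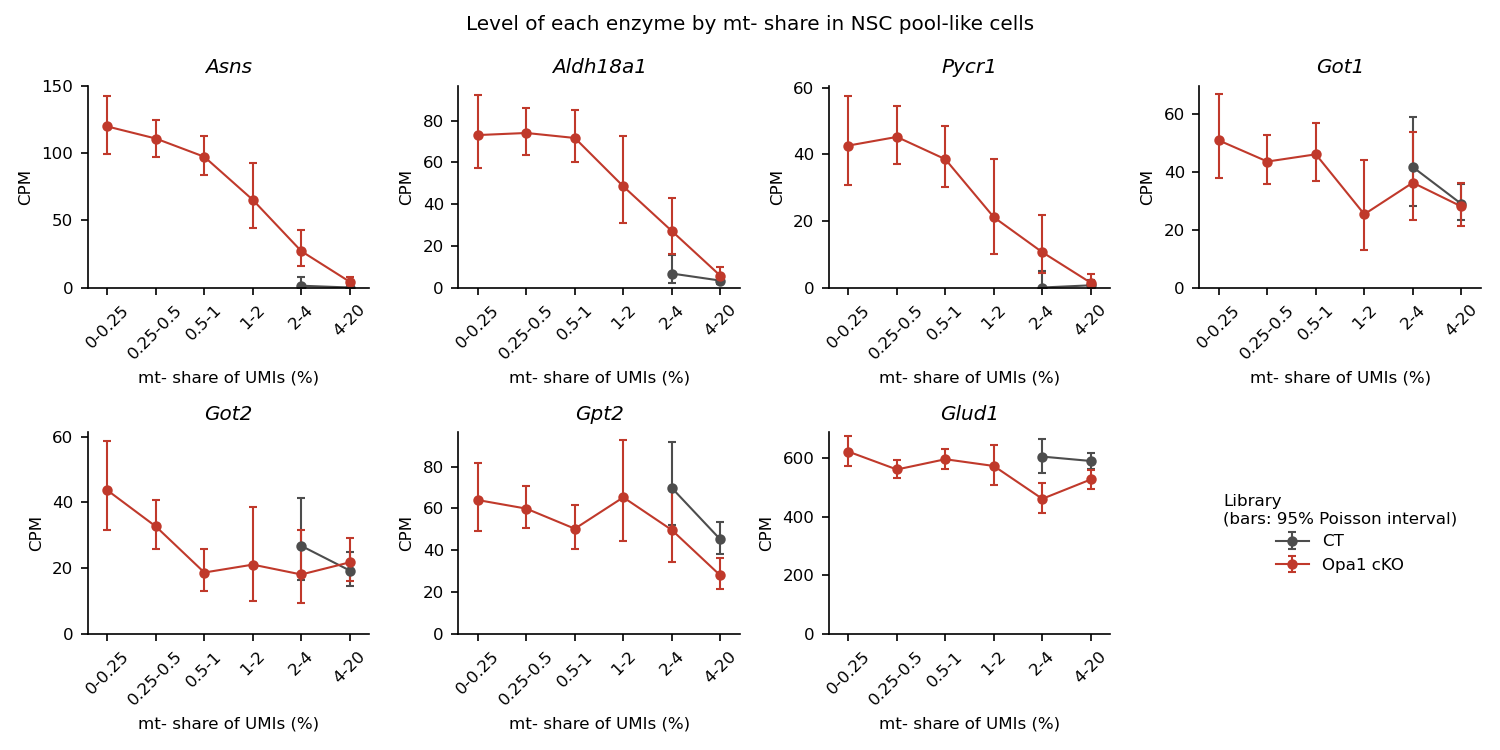
Level of each enzyme in CPM (linear axes from 0) in NSC pool-like cells by mt- share of the cell in 6 bins, for bins with at least 20 cells, with exact 95% Poisson intervals of counting error. In Opa1 cKO, Asns goes from 120 CPM at a share under 0.25% to 4.27 CPM at 4% and over, Aldh18a1 from 73.1 to 5.69 CPM and Pycr1 from 42.6 to 1.42 CPM, while Glud1 stays between 461 and 622 CPM.

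Finer bins showed where along the mt- share the levels differed. Aldh18a1 was at 73.1, 74.1 and 71.7 CPM in the 3 bins under 1% (311, 681 and 582 cells), and its intervals there overlapped. It was at 48.5 CPM from 1% to under 2%, 27.1 CPM from 2% to under 4% and 5.69 CPM (2.94 to 9.94) at 4% and over. Asns went from 120 CPM (99.2 to 143) in the lowest bin over 111 to 97.4 CPM (83.7 to 113) under 1%, and then to 65.3, 27.1 and 4.27 CPM. For all 3 genes the intervals of the bins under 1% overlapped, and each bin above 1% had a lower value than the bin before it. The interval from 1% to under 2% still overlapped that of the bin before it for all 3 genes. From 2% to under 4% it did so for Aldh18a1 and Pycr1 but not for Asns. At 4% and over the interval lay below that of the bin before it for all 3.

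Outside the NSC pool-like class the relation of Asns to the mt- share differed among classes. In Opa1 cKO mural-like cells Asns was at 244 CPM (158 to 360) in the 48 cells under 1%, at 20.7 CPM (4.27 to 60.5) in the 70 cells from 1% to under 3% and at 20 CPM (2.43 to 72.4) in the 51 cells at 3% and over. In the same 48 cells Aldh18a1 was at 19.5 CPM (2.36 to 70.4), so that a high level of Asns was found there without a similar level of Aldh18a1. Opa1 cKO progenitor and neuron-like cells had Asns at 179 CPM (132 to 237) in 80 cells under 1% and 92.3 CPM (57.9 to 140) in 70 cells from 1% to under 3%. The 19 cells at 3% and over were at 55.3 CPM (15.1 to 142), and the intervals of these groups overlapped. In activated NSC-like cells Asns was at 116 (84.5 to 156), 58.6 (42.7 to 78.4) and 89.8 CPM (47.8 to 154) in 122, 240 and 47 cells, and was not low at 3% and over. Endothelial-like cells had Asns at 104 CPM (62.9 to 163) in 37 cells from 1% to under 3%. In 50 cells at 3% and over they had 5.22 CPM (0.132 to 29.1). Ependymal-like cells had 24.8, 17.2 and 0 CPM, with intervals that overlapped.

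Gpt2, which was level between the whole libraries, differed along the mt- share. It was at 57.2 CPM (50.9 to 64.1) in Opa1 cKO cells under 1%, at 61 CPM (44.3 to 81.9) from 1% to under 3% and at 31.3 CPM (24.8 to 39) at 3% and over, a log2 ratio of the lowest over the highest group of 0.87 (0.51 to 1.25). Got1 had 45.8, 26.3 and 30.1 CPM and a ratio of 0.60 (0.23 to 1.00), Got2 29.8, 18 and 21.8 CPM and a ratio of 0.45 (−0.002 to 0.92), and Glud1 585, 531 and 517 CPM and a ratio of 0.18 (0.08 to 0.27). The ratio of Glud1 was below that of the median gene.

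Cells at 3% and over were numerous in both libraries and could be set side by side. There Asns had 1 UMI in CT and 16 UMIs in Opa1 cKO, at 0.284 CPM (0.00718 to 1.58) and 6.34 CPM, a log2 ratio of 4.48 (1.79 to 9.87). Opa1 cKO oligodendrocyte-like cells, used below as a measure of free RNA, had Asns at 16.1 CPM (6.46 to 33.1). The level of 6.34 CPM was not above this, and the part of free RNA in it was not tested. Aldh18a1 had 11 and 17 UMIs, at 3.12 CPM (1.56 to 5.58) and 6.73 CPM, and a ratio of 1.11 (−0.07 to 2.35). Pycr1 had 2 and 5 UMIs and a ratio of 1.80 (−0.81 to 5.20). At these counts a difference in Aldh18a1 and Pycr1 was not detectable. Gpt2 was lower in the Opa1 cKO cells, at 48.2 CPM (41.3 to 56.1) in CT and 31.3 CPM in Opa1 cKO with a ratio of −0.62 (−1.03 to −0.23), and so was Glud1, at 594 CPM (568 to 620) and 517 CPM (490 to 546) with a ratio of −0.20 (−0.30 to −0.10). The median gene had a ratio of 0.01 in this comparison. Got1 and Got2 had ratios of 0.04 (−0.40 to 0.48) and 0.13 (−0.40 to 0.66), and the ISR genes differed among themselves. Atf4 had a ratio of −0.24 (−0.53 to 0.05) and Ddit3 of 0.29 (−0.03 to 0.62). Trib3, with 23 UMIs in Opa1 cKO and none in CT, was 10.7-fold higher with CT set at 3 counts. Its exact lower limit lay below this value. Opa1 was at 18.2 CPM in CT against 11.5 CPM in Opa1 cKO.

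Cluster 0, the NSC pool-like cluster with many cells of both libraries, gave similar values, a comparison added after the values above were known. It is not an independent set, since it holds 1374 of the 1378 CT cells of the class. Its 792 Opa1 cKO cells had 17 UMIs of Aldh18a1 and 5 of Pycr1, as did the 768 cells at 3% and over. In cluster 0 Asns had 1 UMI in CT and 14 in Opa1 cKO (log2 ratio 4.36, 1.64 to 9.76). Its level of 5.44 CPM (2.98 to 9.13) in these Opa1 cKO cells was again not above that of Opa1 cKO oligodendrocyte-like cells. Aldh18a1 had a ratio of 0.73 (−0.36 to 1.84), Pycr1 of 1.87 (−0.74 to 5.27) and Gpt2 of −0.67 (−1.06 to −0.29). Got1 and Got2, at 0.33 and 0.34 over the whole class, were at −0.08 (−0.51 to 0.35) and −0.02 (−0.55 to 0.50). In the 1791 Opa1 cKO cells of cluster 1, Asns was at 103 CPM (94.7 to 111), Aldh18a1 at 70.8 CPM (64.2 to 77.9) and Pycr1 at 40.1 CPM (35.1 to 45.5). Cluster 1 thus held 608 of the 622 UMIs of Asns, 419 of the 436 of Aldh18a1 and 237 of the 242 of Pycr1 in the class, in cells that had almost no counterpart in CT. The clustering itself used expressed genes, and cluster, mt- share and the ISR genes, which moved with these 3 enzymes, cannot be told apart here.

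At the level of single cells most had no UMI of these genes even where their summed level was high. Of 2583 Opa1 cKO NSC pool-like cells 2123 had 0 UMIs of Asns, 341 had 1, 89 had 2 and 30 had 3 or more, with a maximum of 8. To compare shares at equal depth each cell was thinned to 1500 UMIs, so that 94 shallower cells of CT and 201 of Opa1 cKO were not used. Then 1 of 1284 CT cells (0.0779%, exact binomial interval 0.00197% to 0.433%) and 210 of 2382 Opa1 cKO cells (8.82%, 7.71% to 10%) had a UMI of Asns. Without thinning the shares were 0.0726% and 17.8%. For Aldh18a1 the thinned shares were 0.467% (0.172% to 1.01%) and 6.51% (5.55% to 7.57%), and for Pycr1 0.156% (0.0189% to 0.562%) and 3.95% (3.2% to 4.81%). Oligodendrocyte-like cells of Opa1 cKO served as a measure of free RNA in the droplets. Thinned, 0 of 101 of them had a UMI of Asns (exact upper limit 3.59%), and 1 of 101 each had Aldh18a1 and Pycr1 (0.99%, 0.0251% to 5.39%). Unthinned, 5.94% (2.21% to 12.5%) had Asns at a median of 3914 UMIs, against 2958 UMIs in the NSC pool-like cells. The thinned shares of Asns and Aldh18a1 in Opa1 cKO NSC pool-like cells lay above this background, while for Pycr1 the intervals overlapped. Unthinned, 1.98% (0.241% to 6.97%) of the oligodendrocyte-like and 8.56% (7.51% to 9.7%) of the NSC pool-like cells had Pycr1, and these intervals did not overlap. The summed level of Pycr1 in oligodendrocyte-like cells was 0.242 times (0.0495 to 0.714) that of NSC pool-like cells.

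The other 4 enzymes had close shares in both libraries. After thinning, Got1 had a UMI in 4.05% of the CT and in 5.46% of the Opa1 cKO NSC pool-like cells, Got2 in 3.43% and 3.53%, Gpt2 in 7.17% and 7.18% and Glud1 in 54% (51.3% to 56.8%) and 55.8% (53.8% to 57.8%). The intervals of the libraries overlapped for each of these genes. In oligodendrocyte-like cells 12.2% of CT and 10.9% of Opa1 cKO had Glud1, and the share in NSC pool-like cells was thus above background. For Got1, Got2 and Gpt2 the shares in oligodendrocyte-like cells, from 2.7% to 9.46%, had intervals that overlapped those of NSC pool-like cells. A share there can come from the cells' own mRNA as well as from free RNA. In CT, Got2 was in oligodendrocyte-like cells at 4.15 times (2.54 to 6.58) the level of NSC pool-like cells. The comparison therefore could not decide how much of these 3 genes was free RNA.

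Cells in which Asns was found were then set against cells in which it was not, among thinned Opa1 cKO NSC pool-like cells with an mt- share under 1% (188 and 1257 cells). UMIs of Asns were left out of the totals. Aldh18a1 was at 85.2 CPM in cells with Asns and 63.6 CPM in cells without (log2 ratio 0.42, −0.28 to 1.06), and Pycr1 at 53.2 and 40.3 CPM (0.40, −0.50 to 1.21). Gpt2 was at 95.8 and 57.3 CPM (0.74, 0.08 to 1.36) and Got2 at 49.7 and 26.5 CPM (0.91, −0.06 to 1.78). Atf4 was at 270 and 267 CPM (0.02, −0.35 to 0.37), and the mt- shares were 0.427% and 0.443%. The value of Gpt2 rests on 27 UMIs in the cells with Asns, and its lower limit was 0.08. The share of all genes that differed as much in this split is not given, so Gpt2 is not singled out. At 24 and 15 UMIs of Aldh18a1 and Pycr1 in the cells with Asns the intervals of these 2 genes spanned 0.

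Across 16 groups of cells (library by class, with NSC pool-like cells divided by mt- share and groups under 20 cells left out) Asns, Aldh18a1 and Pycr1 had profiles close to each other, as the plot of profiles shows. On log2(CPM + 10), Pearson's r was 0.891 between Asns and Pycr1, 0.911 between Aldh18a1 and Pycr1 and 0.795 between Asns and Aldh18a1. Asns had r of 0.244 with Got1, 0.108 with Gpt2, 0.069 with Got2 and 0.004 with Glud1. The separation from the other enzymes was less clear for Aldh18a1, which had r of 0.559 with Gpt2 and 0.459 with Got1. The lowest value was −0.663 between Got2 and Glud1. These are descriptions: the groups share 2 libraries, and they differ in depth.

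**Figure D4:**
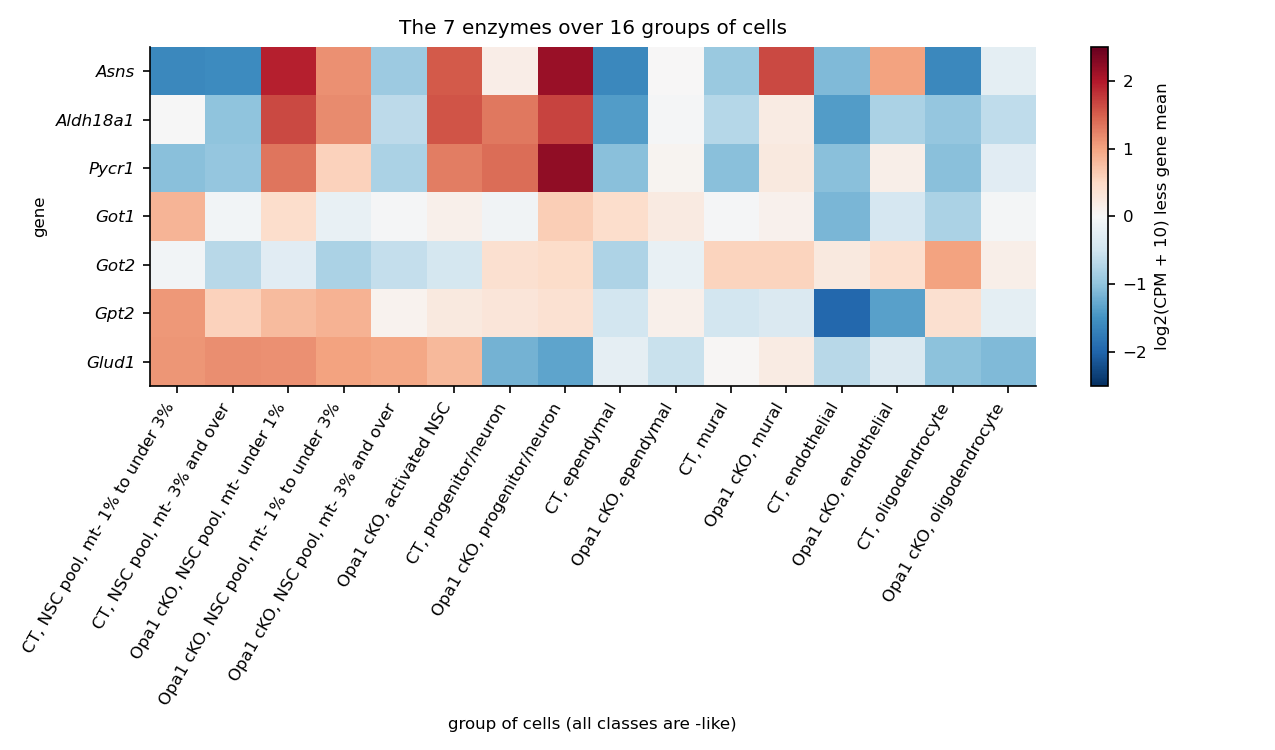
The 7 enzymes over 16 groups of cells, as log2(CPM + 10) less the mean of the gene over the groups (colour, from −2.5 to 2.5). Asns, Aldh18a1 and Pycr1 are all high in Opa1 cKO progenitor and neuron-like, activated NSC-like and low mt- share NSC pool-like cells. They part in Opa1 cKO mural-like cells (86.4, 20.2 and 14.4 CPM) and CT progenitor and neuron-like cells (24.4, 55.6 and 44.4 CPM). Glud1 is high in all NSC pool-like groups, and Got2 has its highest value in CT oligodendrocyte-like cells.

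Of 7141 genes that reached 300 UMIs, those with profiles most like Asns were Hspa9, the mitochondrial HSP70 chaperone (r = 0.944), Eprs, the glutamyl-prolyl-tRNA synthetase (0.911), and Eif2s2, a subunit of the initiation factor that the ISR acts on (0.889). For Aldh18a1 they were Eprs (0.904), Aen (0.904) and Chac1 (0.898), a glutathione-degrading enzyme of the ISR list. For Pycr1 they were Ran (0.912), Vdac3 (0.902) and Psmc5 (0.902). Those most like Got1 were Pigf (0.915), Memo1 (0.851) and Zcchc3 (0.844), those most like Got2 were Nkap (0.914), Arpc5 (0.902) and Raly (0.881), and those most like Gpt2 were Fabp5 (0.907), Pigt (0.902) and Pfas (0.901). The profile of Glud1 was closest to Ndrg2 (0.955), Papss2 (0.947) and Fam107a (0.946), of which Ndrg2 is a known astrocyte marker.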

How the data were processed

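Live YFP+ hippocampal cells were profiled with the single-cell 3′ v2 assay of 10x Genomics. The authors deposited matrices of UMI counts per gene and cell, aligned to mm10. The submitters' processing notes name Cell Ranger 2.1.1, while the matrix headers give 3.1.0, and the annotation used for counting was not given in the sources used here. No deposited counts were altered. The members and gene lists were chosen with earlier results of these data known.

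Barcodes with more than 600 and fewer than 7500 genes, a mitochondrial share under 20% and at least 1 YFP UMI were kept, joined, normalised with SCTransform (sctransform 0.4.2) and clustered in Seurat 5.3.0 (R 4.3.3, 8 dimensions, resolution 0.2). Clusters were named by the marker list with the highest mean log2 fold over the mean of the other clusters, where this mean and at least 3 markers were over 1, and the form of this rule was set after the clusters were seen. No doublet caller was run. An alternative left out the 5% of cells with the most UMIs. UMIs were summed over the cells of each class and library and divided by their total (CPM). Intervals are exact 95% intervals (Poisson for a level, binomial split of UMIs for a ratio, Clopper-Pearson for a share) and cover counting error only, computed with Python 3.11.15, numpy 2.4.6, pandas 2.3.3 and scipy 1.17.1. With 1 library per genotype there was no test. Genes that reached 20 UMIs in a class entered counts, and a gene at 0 UMIs in 1 library was set at 3 counts. Shares were also taken with every cell thinned to 1500 UMIs.

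Besides the 7 enzymes, pathway genes that reached 20 UMIs in NSC pool-like cells were named where the log2 ratio was at least 1 or at most −1, and otherwise up to 4 per list with the most UMIs. Some genes that this rule selects are not reported here. Opa1, Atf4, Ddit3 and Trib3 were named as context, and for each enzyme the 3 genes with the highest Pearson's r over groups of at least 20 cells. Promoter sequences are from RefSeq (GRCm38.p6), and figures were drawn with matplotlib 3.10.9.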

Additional observations from a re-analysis of the deposited data

How the results depend on the processing

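Alternatives to the filters on cells, the denominator of CPM, the weighting and depth of cells, the clustering and the treatment of possible doublets were computed. In NSC pool-like cells the log2 ratio of Opa1 cKO over CT over 12 alternatives ran from 4.36 to 8.27 for Asns, 0.73 to 3.80 for Aldh18a1, 1.87 to 6.73 for Pycr1, −0.08 to 0.47 for Got1, −0.02 to 0.39 for Got2, −0.67 to 0.04 for Gpt2 and −0.22 to −0.02 for Glud1. The lowest values of Asns, Aldh18a1, Pycr1, Got1, Got2 and Gpt2 came from the cells of cluster 0 alone, an alternative chosen after seeing the data, which gave 4.36, 0.73, 1.87, −0.08, −0.02 and −0.67, and −0.20 for Glud1. Got1 and Got2 thus turned direction there, and Got2 was also below 0 with thinned cells (−0.003). This alternative holds 792 of the 2583 Opa1 cKO cells. Centred on the median gene, Glud1 was at −0.22. Among Opa1 cKO cells, Gpt2 in those of low mt- share over those at 3% and over was at 1.25 with thinned cells, and the cause was not tested. Beside these 8 values, 108 others for the NSC pool-like class stayed within the counting interval of the main value or, for counts of genes, near the main count. Of the values for other classes and for shares of cells, 256 stayed within it and 17 did not, 12 of the latter being shares of cells with a UMI, which are lower in thinned cells. The alternatives gave no value for activated NSC-like cells when cells without YFP were kept, when every barcode with more than 200 genes was kept, when clustering left out the mitochondrial, member, pathway and ISR genes, or at the finer resolution. No paired analysis was possible because each genotype had 1 library and the labels give no replicate numbers. Depth limits Asns and Pycr1 in CT, where the ratios rest on 1 and 2 UMIs.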
